A study of Mus musculus with 9 samples.

Results

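Tnnc1 encodes cardiac troponin C, the calcium-binding subunit of the troponin complex. Its methylation was measured at 15 CpG sites, 6 in the amplified region Tnnc1_1 and 9 in Tnnc1_2. These are all CpG sites listed in the rows named for the 2 regions, and each had at least 30 reads in all 9 libraries, so all 15 are described here, out of 310 CpG sites that met this coverage over the whole series. Tnnc1_1 was heavily methylated at every site. Tnnc1_2 held nearly unmethylated and highly methylated CpG sites side by side, and matching its cytosines to RefSeq promoter windows placed it beside the start of the neighbouring gene Nisch. No Tnnc1 site or region passed the test for a difference between siRNA groups.

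The libraries come from primary cardiomyocytes of embryonic ventricles of CD-1 mice at embryonic day 13.5, with the tissue of each litter pooled. Cells were grown for 48 h, transfected with 0.012 pmol of negative siRNA, DNMT3a siRNA or DNMT3b siRNA, and collected 72 h later (3 libraries per group). All groups went through the same transfection and magnetic sorting for VCAM1, which embryonic cardiomyocytes carry on their surface. RNA was not analysed here, so neither the degree of knockdown nor the markers of the cell type were checked, and a level is an average over the cells of a library. The labels number the replicates, but do not say that they came from separate litters, so p-values measure the spread between these libraries, which may be technical.

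Troponin C sits on the thin filament of the sarcomere, where calcium binding to it releases the block that troponin I (Tnni3) exerts on contraction, while troponin T (Tnnt2) anchors the complex to tropomyosin. Tnnc1 is transcribed in the heart and in slow skeletal muscle. DNMT3a and DNMT3b methylate CpG sites that carried no methyl group before, and DNMT1 copies existing methylation when DNA is replicated. In bisulfite sequencing, unmethylated cytosines are converted and read as T, so the percent of reads that carry C is the methylation level.

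The position of Tnnc1_2 was found from the letters of its listed cytosines. All 37 of its cytosines that fall in the RefSeq promoter window of Nisch matched that window in position and context, and no other window among 32851 matched a stretch of 60 offsets of either region. Nisch encodes nischarin, a protein that binds integrin subunits, and is transcribed away from Tnnc1. On build GRCm38.p6, Tnnc1 lies at chr14:31208312-31211729 on the plus strand, and Nisch at chr14:31170928-31206826 on the minus strand, so their first bases are 1486 bases apart. Tnnc1_2 spans chr14:31206937-31207341. It therefore begins 111 bases upstream of Nisch and ends 971 bases upstream of Tnnc1, in the intergenic stretch between both starts. Positions beyond offset 141, where the matched window ends, were obtained by counting on. Tnnc1_1 matched no window, so its offsets have no coordinate here. Neither region matched the window from 250 bases before to 50 bases after the start of Tnnc1. That window holds 1 CpG, at base 37 of the gene, and 0 in the 250 bases before it, against a median of 7 over all windows. The label of a Tnnc1 promoter thus holds for Tnnc1_2 only in the sense of an upstream region that is nearer to the start of Nisch. For Tnnc1_1 an overlap with that window shorter than 60 bases would not have been found.

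The matched part of Tnnc1_2, from RefSeq, is shown because the change from low to high methylation falls within it. It is the plus strand of chr14:31206937-31207076, with the CpG sites at offsets 41, 51, 67 and 107 in capitals in that order.
Tnnc1_2, offsets 2 to 141: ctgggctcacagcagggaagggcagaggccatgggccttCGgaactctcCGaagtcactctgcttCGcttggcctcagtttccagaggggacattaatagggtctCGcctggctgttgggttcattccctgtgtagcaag
For other sites only the letters that the files list are known. An n stands for a base that is not a listed cytosine or one of the following 2 bases, and capitals mark the CpG the line is named for, or all 3 CpG sites in the last line. They are the sites to which the results below refer most.
Tnnc1_2 offset 196: agnnnnnctctcCGacacttnnnnnn
Tnnc1_2 offset 272: ctcagnnccccaCGgncttncccctg
Tnnc1_2 offset 299: cagnnnnctannCGgcacactgnnnn
Tnnc1_1 offset 198: ctgnctcaanccCGannnnnncactg
Tnnc1_1 offsets 240 to 257: CGgCGtnnnnnnnccCGc

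Motifs bound by muscle and heart factors were searched for in the matched 140 bases, on both strands. The M-CAT motif CATTCC, bound by TEAD factors, occurred at 1 place, starting at offset 124, and is present in 7.62% of RefSeq windows over the same length. The E-box CANNTG, the GATA core AGATA and the CACC box CACCC were not among these letters (present in 46.8%, 17.8% and 33.2% of windows). A match is a description of the letters only.

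In negative siRNA libraries, the 3 CpG sites of Tnnc1_2 nearest to Nisch were almost unmethylated, and the level rose steeply after them. The CpG at offset 41, 150 bases upstream of Nisch, was at 1.10%, 0.75% and 1.20% in replicates 1 to 3. Offset 51 was at 1.59%, 1.79% and 2.12%, and offset 67, 176 bases upstream of Nisch, at 3.69%, 3.94% and 4.30%. These levels are low, yet each is above the 0.157% ± 0.008 (SD, n = 3) of reads carrying C at cytosines outside CpG in the same region.

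At offset 107, only 40 bases further on, the level was 71.2%, 68.8% and 71.9% in the negative siRNA libraries. Within each of the 9 libraries, offset 107 was 59.7 to 67.6 points above offset 67. The rise was therefore larger than any spread between libraries, and it lies between 176 and 216 bases upstream of Nisch, or 1310 and 1270 bases upstream of Tnnc1.

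The rest of Tnnc1_2 was not uniformly methylated. The CpG at offset 196 was at 16.4%, 14.3% and 16.2% in negative siRNA, a dip of 49.1 to 55.9 points below offset 107 in each library. It was followed by 76.8%, 77.3% and 75.3% at offset 272, and by the highest level of the region at offset 299, with 89.9%, 91.0% and 91.7%. Offset 340 fell back to 38.9%, 39.3% and 42.8%, and offset 365, the last one, stood at 62.8%, 63.0% and 59.4%. From lowest to highest the order was 41, 51, 67, 196, 340, 365, 107, 272 and 299, and this order was the same in 9 of 9 libraries. The closest neighbours in it, by size of step, were offsets 41 and 51, which differed by 0.45 to 1.40 points within a library.

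The low offsets 51 and 196 share the letters ctctcCGa around their CpG, a likeness noticed after the values were seen. Both are followed by A, as is offset 198 of Tnnc1_1, the lowest site of that region. Over the 310 tested sites of the series, the 56 CpG sites followed by A had a median level of 11.7% in negative siRNA, against 8.41%, 2.24% and 10.9% for those followed by C, G and T. By these medians, CpG sites followed by A were not the lowest class.

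**Figure D1:**
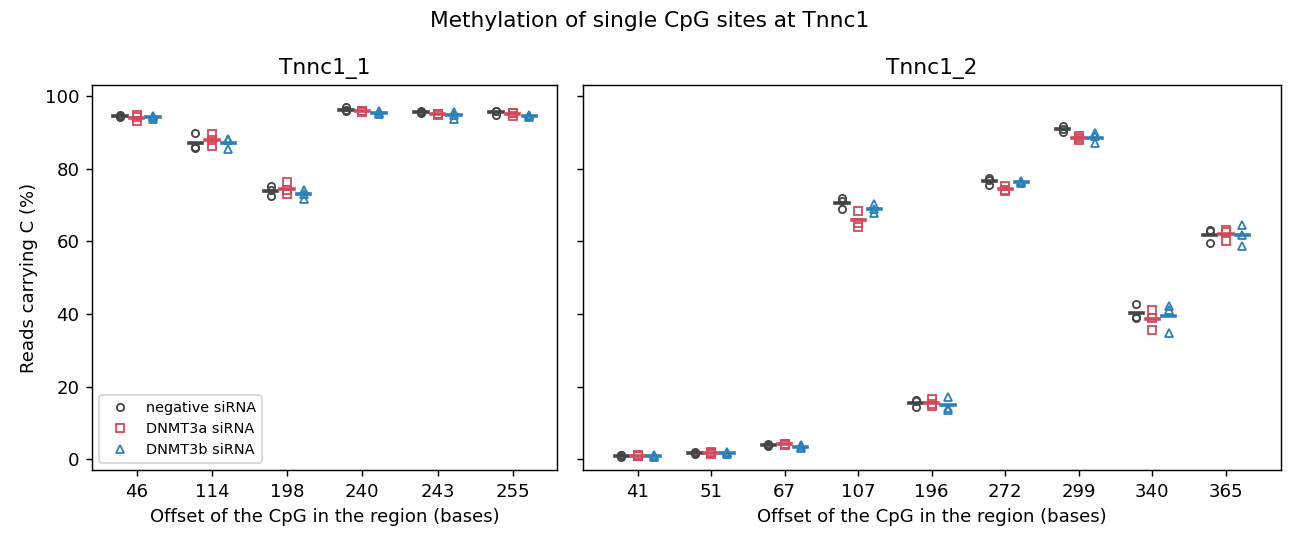
Percent of reads carrying C at each Tnnc1 CpG (vertical axis, %) by its offset in the region (horizontal axis, bases, evenly spaced), with Tnnc1_1 on the left and Tnnc1_2 on the right. Each symbol is a library, coloured by siRNA group, and bars are means of 3 libraries. All Tnnc1_1 values lie between 71.7% and 96.8%, whereas Tnnc1_2 runs from 0.58% to 91.7%, and the groups differ little beside the differences between sites.

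**Figure D2:**
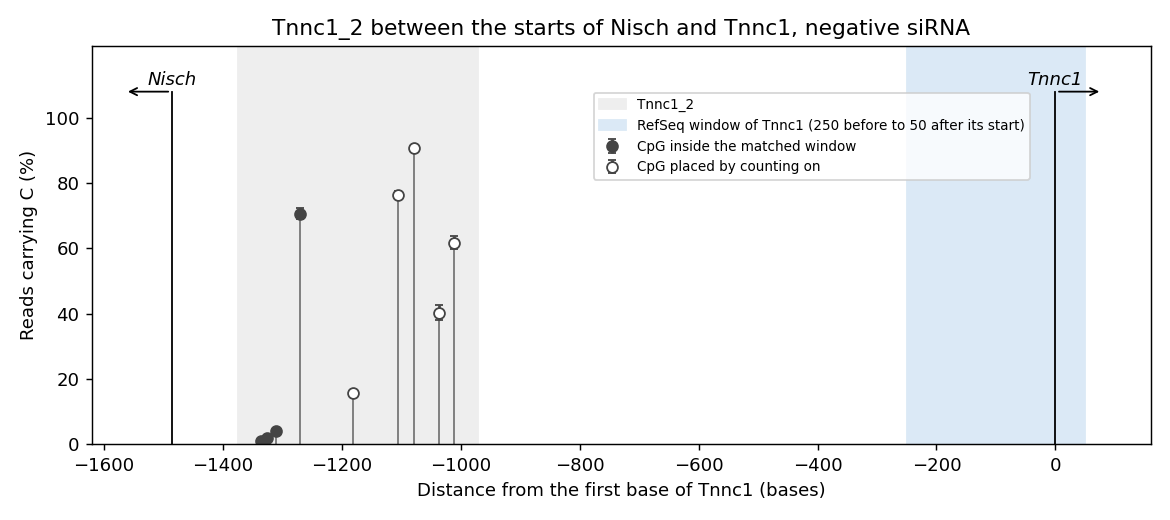
Methylation of the 9 Tnnc1_2 CpG sites in negative siRNA (vertical axis, % of reads carrying C, mean with SD of 3 libraries as bars) by distance from the first base of Tnnc1 (horizontal axis, bases). Grey marks Tnnc1_2, blue the RefSeq window of Tnnc1, and vertical lines with arrows the starts and directions of both genes. The 3 sites nearest to Nisch stand at 1.01% to 3.98%, and the next site at 70.6%.

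Tnnc1_1 showed a flatter pattern at a high level. The CpG at offset 46 was at 94.3%, 94.5% and 94.7% in negative siRNA. The closely spaced sites at offsets 240, 243 and 255 had means of 96.2% ± 0.59, 95.6% ± 0.26 and 95.5% ± 0.58 (SD, n = 3). Lower levels were found at offset 114, with 85.5%, 86.0% and 89.8%, and at offset 198, with 72.3%, 74.0% and 75.2%.

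The dip at offset 198 was present in every library: it was 12.0 to 14.8 points below offset 114 and 19.5 to 23.4 points below offset 240. Offsets 198, 114 and 46 kept this order from low to high in 9 of 9 libraries. Among the 4 highest sites the order was mixed at its lower end, with offset 46 below offset 255 in 6 of 9 libraries and offset 255 below offset 243 in 5 of 9. Offset 240 was above offset 243 in 8 of 9 libraries.

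Taking the mean over CpG sites of a region, Tnnc1_1 exceeded Tnnc1_2 in all 9 libraries. The difference was 50.6 ± 0.76 points (SD, n = 9, range 49.4 to 51.6, exact two-sided sign-flip permutation p = 0.00391, the smallest possible with 9 libraries). It describes these 15 sites rather than 2 uniform domains, because offset 299 of Tnnc1_2 was above offsets 114 and 198 of Tnnc1_1 in mean, at 90.9% against 87.1% and 73.9% in negative siRNA.

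Whether methylation at Tnnc1 falls when DNMT3a is targeted was asked first, against negative siRNA. The mean of Tnnc1_1 was 90.3%, 90.8% and 89.9% after DNMT3a siRNA against 89.7%, 90.4% and 91.3% in negative siRNA. These groups overlapped, with means -0.11 points apart (p = 0.90 in the exact permutation test, two-sided). Tnnc1_2 was at 39.5%, 39.3% and 38.3% against 40.3%, 40.0% and 40.6%. All 3 DNMT3a libraries lay below all 3 negative libraries, a difference of -1.26 in mean (p = 0.10 in the same exact test, the smallest that 3 against 3 libraries can give). Among all 26 regions, 23.1% did not overlap between these groups, and the edgeR test called 0%.

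On summed reads, the edgeR quasi-likelihood test of Tnnc1_2 gave a log2 odds ratio of -0.09 ± 0.07 (SE, 95% interval -0.26 to 0.08, adjusted p = 0.625 over 26 regions). For Tnnc1_1 the log2 odds ratio was 0.0029 ± 0.10 (SE, 95% interval -0.24 to 0.24, edgeR adjusted p = 0.979). The difference between both regions was 1.15 points wider after DNMT3a siRNA, at 51.3 ± 0.48 points against 50.2 ± 0.67 (SD, n = 3 each, no overlap, two-sided p = 0.10 by the exact permutation test). The groups nearly met, with 50.77 points in DNMT3a siRNA replicate 1 and 50.73 in negative siRNA replicate 3.

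The edgeR test called 0 of 15 Tnnc1 sites, as it called 0% of the 310 sites in this comparison. At an unadjusted p under 0.05, edgeR found 1 of 15 Tnnc1 sites, against 11.6% of all sites, while DESeq2 found 3 (14.5% of all sites) and limma 1 (12.6% of all sites) at that level. After adjustment DESeq2 called 1.29% of all sites and limma 0%, with 0 Tnnc1 sites by either. Groups did not overlap at 4 of the 15 sites (26.7%), all lower with DNMT3a siRNA, where 15.2% of all sites did not overlap and 10.6% were lower without overlap. In mean, 11 of the 15 sites were lower, against 60.6% of all sites. Sites of a region come from the same amplified molecules, so these counts are not independent.

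The largest difference in percentage points was at offset 107 of Tnnc1_2, the first highly methylated CpG next to the unmethylated stretch. It was at 68.2%, 63.9% and 65.0% after DNMT3a siRNA and at 71.2%, 68.8% and 71.9% in negative siRNA. The groups did not overlap, although DNMT3a siRNA replicate 1 came close to the lowest negative library. The difference of -4.91 points corresponds to a log2 odds ratio of -0.33 ± 0.16 (SE, 95% interval -0.68 to 0.03, edgeR adjusted p = 0.454).

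Offset 299 of Tnnc1_2 had the smallest p and the largest log2 odds ratio among Tnnc1 sites. It was at 87.7%, 89.0% and 88.3% after DNMT3a siRNA against 89.9%, 91.0% and 91.7%, without overlap. The log2 odds ratio was -0.39 ± 0.17 (SE, edgeR unadjusted p = 0.0486, adjusted p = 0.414), so it did not pass. Offset 272, at 73.8%, 75.1% and 74.0% against 76.8%, 77.3% and 75.3%, was the other Tnnc1_2 site without overlap (-0.17 ± 0.14 SE, edgeR adjusted p = 0.683).

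These 3 sites are the 3 most methylated of Tnnc1_2. At the other 6 sites of the region the groups overlapped, with mean differences between -1.82 points at offset 340 and 0.19 points at offset 67. In Tnnc1_1 the only site without overlap was offset 243, at 94.8%, 95.1% and 95.1% after DNMT3a siRNA against 95.5%, 95.9% and 95.4% (-0.59 points, edgeR adjusted p = 0.719). The means of offsets 114 and 198 were 0.79 and 0.56 points higher with DNMT3a siRNA, with overlapping groups.

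**Figure D3:**
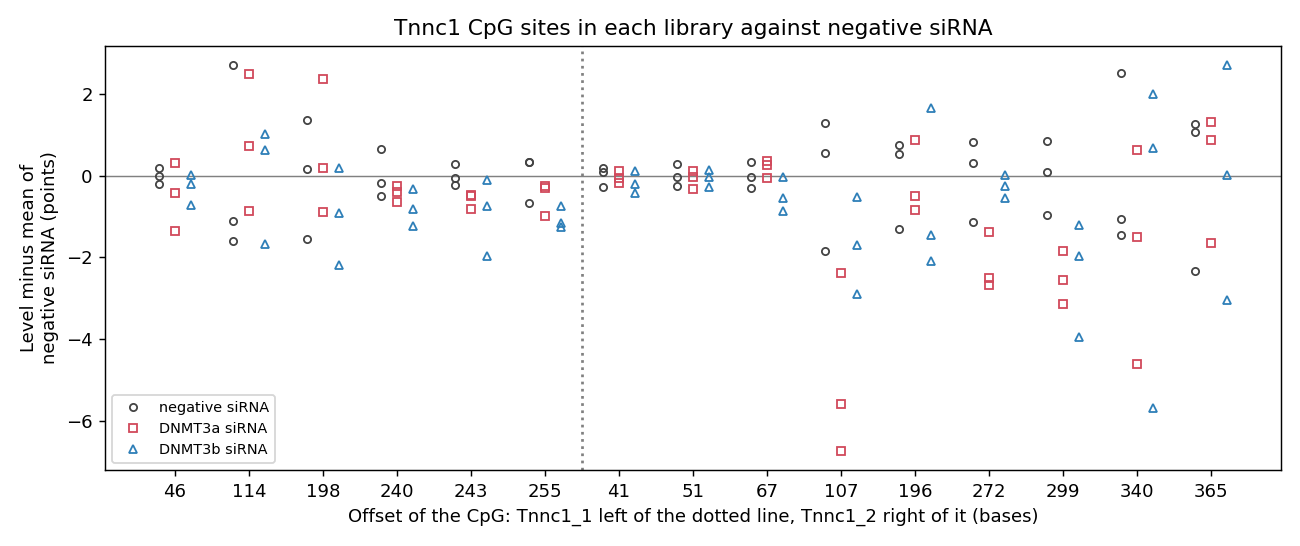
Level of each Tnnc1 CpG in each library minus the mean of the 3 negative siRNA libraries at that site (vertical axis, percentage points), by offset (horizontal axis, bases, evenly spaced), with Tnnc1_1 left and Tnnc1_2 right of the dotted line. Symbols are libraries, coloured by siRNA group. At offset 107 all 3 DNMT3a siRNA libraries lie below the negative siRNA libraries, and at offset 299 so do those of both DNMT3a and DNMT3b siRNA.

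DNMT3b siRNA was compared with negative siRNA to ask the same of the second enzyme. Every one of the 15 Tnnc1 sites was lower in mean with DNMT3b siRNA, with differences from -0.0096 points at offset 114 of Tnnc1_1 to -2.38 points at offset 299 of Tnnc1_2, and none passed the test. The full count of 15 rested on DNMT3b siRNA replicate 3. Replicates 1 to 3 were at 87.7%, 88.1% and 85.4% at offset 114 of Tnnc1_1, where the negative siRNA mean was 87.1%. At offset 340 of Tnnc1_2 they were at 41.0%, 42.3% and 34.6%, with a negative siRNA mean of 40.3%. Sites of a region also come from the same amplified molecules, so they are not independent. Lower means were found at 68.7% of all sites in this comparison, and the median difference was -0.63 points over Tnnc1 sites and -0.24 points over all sites. Both sets of values share the negative siRNA libraries with the comparison above.

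Tnnc1_1 was at 90.0%, 90.2% and 89.1% after DNMT3b siRNA, -0.68 points from negative siRNA with overlap (p = 0.40 in the exact permutation test). That difference was -0.33 without DNMT3b siRNA replicate 3, and dropping replicate 3 or 1 of negative siRNA gave -0.25 or -1.05. Tnnc1_2 was at 40.3%, 40.1% and 38.2%, where replicate 3 was the lowest and the other two lay within the range of negative siRNA. Its mean was -0.76 points from that of negative siRNA (p = 0.50 in the exact permutation test). It was -0.072 without DNMT3b siRNA replicate 3. With the reads of the region pooled, so that deeply covered sites weigh more, it was -1.88 points without overlap (p = 0.10 in the exact permutation test). The size of this difference thus depended on that library and on the weighting of sites. The edgeR log2 odds ratios were -0.12 ± 0.10 for Tnnc1_1 (SE, 95% interval -0.36 to 0.12) and -0.11 ± 0.07 for Tnnc1_2 (SE, 95% interval -0.28 to 0.06), both with an adjusted p of 0.524. The difference between regions was 50.3 ± 0.62 points against 50.2 ± 0.67 (p = 0.90 in the exact permutation test). Of all 26 regions, 19.2% did not overlap in this comparison.

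The edgeR test called 0 of 15 sites, as in 0% of the 310 sites, and 0 had an unadjusted p under 0.05, which 9.35% of all sites had. With limma that count was also 0 (10.3% of all sites), whereas DESeq2 gave 2 such sites (11.6% of all sites). After adjustment either tool called 0% of all sites. Groups did not overlap at 2 of 15 sites (13.3%), both lower, beside 20.6% of all sites in either direction and 18.4% lower. Offset 299 of Tnnc1_2 was at 88.9%, 89.7% and 86.9% after DNMT3b siRNA, each below the lowest negative library at 89.9% (log2 odds ratio -0.37 ± 0.17 SE, edgeR adjusted p = 0.503). Offset 255 of Tnnc1_1 was at 94.7%, 94.2% and 94.3% against 94.8%, 95.8% and 95.8% (-0.32 ± 0.17 SE, edgeR adjusted p = 0.526), where DNMT3b siRNA replicate 1 and negative siRNA replicate 1 nearly met.

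Offset 107 of Tnnc1_2 was at 68.9%, 70.1% and 67.7% after DNMT3b siRNA, and here the groups overlapped (-1.70 points, edgeR adjusted p = 0.840). The nearly unmethylated offset 67 was at 3.11%, 3.94% and 3.42%, overlapping with negative siRNA (-0.48 points in mean). Offset 340 of Tnnc1_2 varied most between DNMT3b libraries, at 41.0%, 42.3% and 34.6%.

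Compared directly, DNMT3a and DNMT3b siRNA differed at no Tnnc1 site or region by the edgeR test, which called 0 of 15 sites and 0% of all sites, with 0 of 15 at an unadjusted p under 0.05 by edgeR, limma and DESeq2 (7.74%, 8.39% and 8.71% of all sites). After adjustment DESeq2 called 2.26% of all sites and limma 0%, with 0 Tnnc1 sites by either. Groups did not overlap at 1 of the 15 sites (6.67%), against 13.5% of all sites in either direction and 6.45% lower. In mean, 6 of 15 sites were lower with DNMT3a siRNA, against 41.6% of all sites. That site was offset 272 of Tnnc1_2, at 73.8%, 75.1% and 74.0% with DNMT3a siRNA and 76.2%, 76.5% and 75.9% with DNMT3b siRNA (-1.93 points, log2 odds ratio -0.15 ± 0.14 SE, edgeR adjusted p = 0.740).

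Offset 107 of Tnnc1_2 differed by -3.21 points in mean between DNMT3a and DNMT3b siRNA (95% interval of the log2 odds ratio -0.57 to 0.15, edgeR adjusted p = 0.679). The groups overlapped there, with 68.2% in DNMT3a siRNA replicate 1 and 67.7% in DNMT3b siRNA replicate 3. Offset 107 was lower with DNMT3a siRNA in 3 of 3 same-numbered pairs, though equal numbers may not mark true pairs. The fit with the replicate block gave an edgeR adjusted p of 0.765. Region means differed by 0.56 points at Tnnc1_1 and -0.50 points at Tnnc1_2 (p = 0.40 and 0.60 in exact permutation tests), where 15.4% of all regions did not overlap, and edgeR's 95% intervals were -0.12 to 0.36 and -0.15 to 0.19 on the log2 odds scale. For Tnnc1_2 the direction was not stable, with a log2 odds ratio of 0.021 and a difference of 0.36 points with reads pooled. Over single libraries left out, the difference of means ran from 0.22 to 0.79 points at Tnnc1_1, lowest without DNMT3b siRNA replicate 3. At Tnnc1_2 it ran from -1.18 points without DNMT3b siRNA replicate 3 to -0.12 without DNMT3b siRNA replicate 1.

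The Tnnc1 regions varied little between libraries beside those of the other troponin genes. Over all 9 libraries Tnnc1_1 ranged from 89.1% to 91.3% and Tnnc1_2 from 38.2% to 40.6%, spans of 2.20 and 2.40 points. The 2 regions of Tnni3 spanned 12.3 and 10.9 points, and those of Tnnt2 spanned 12.2 and 6.98 points. Of the 21 regions with a mean level between 2% and 98%, Tnnc1_1 and Tnnc1_2 had the 2nd and 3rd smallest span.

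In Tnni3 and Tnnt2, DNMT3a siRNA replicate 2 lay above both others of its group. It was at 58.7% in Tnni3_1, where replicates 1 and 3 were at 46.5% and 49.5%, and at 58.6% in Tnnt2_1 against 47.0% and 51.8%. At Tnnc1 the same library was at 90.8% in Tnnc1_1, where the other two were at 90.3% and 89.9%, and lay between them in Tnnc1_2, and without it the difference of Tnnc1_2 from negative siRNA was -1.40 points. Tnnc1 sites were also deeply covered, with a median of 24870 reads in Tnnc1_1 and 29868 in Tnnc1_2, against 7964 over all tested sites. Whether depth or the level of the sites has a part in the smaller span was not tested.

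In percentage points, the median change over sites was smaller at Tnnc1 than over the other sarcomere genes, without a test of that difference. After DNMT3a siRNA the median over sites was -0.43 points for Tnnc1 and -3.03 points for the 29 sites of Tnnt2 and Tnni3, where 28 sites were lower in mean. After DNMT3b siRNA these medians were -0.63 and -3.63 points, again with 28 of 29 sites lower. Over the 56 sites of Tnnt2, Tnni3, Myh6, Myh7 and Myh7b, 50 were lower after DNMT3a siRNA and 52 after DNMT3b siRNA, against 11 and 15 of the 15 Tnnc1 sites. Medians over these 56 sites were -2.90 and -2.41 points. By region the picture was mixed after DNMT3a siRNA: their 10 regions ran from -5.00 to 0.32 points, with Tnnc1 regions at -1.26 and -0.11. After DNMT3b siRNA the 10 regions ran from -12.8 to -0.86 points, with Tnnc1 regions at -0.76 and -0.68. Whether the level of the sites has a part was not tested.

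**Figure D4:**
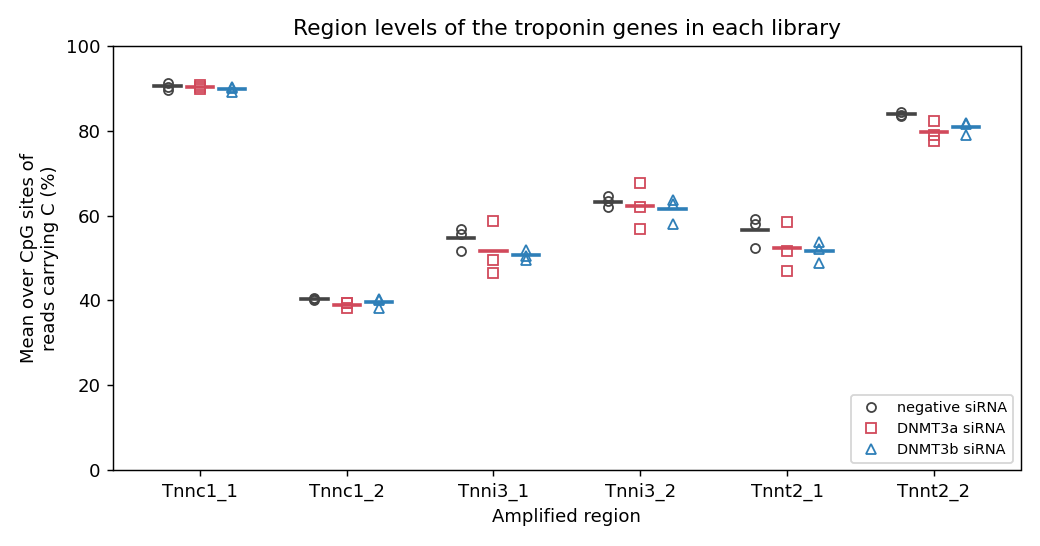
Mean level over CpG sites (vertical axis, % of reads carrying C) of the amplified regions of Tnnc1, Tnni3 and Tnnt2 (horizontal axis). Each symbol is a library, coloured by siRNA group, and bars are means of 3 libraries. The libraries lie close together in both Tnnc1 regions, which span 2.20 and 2.40 points, and farther apart in Tnni3_1, which spans 12.3 points.

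By level alone, the region most like Tnnc1_1 over the 9 libraries was Tnnt2_2, with a mean absolute difference of 8.76 points, then Mef2c_1 with 8.83 and Myh6_2 with 20.7. Tnnc1_2 was nearest to Myh7b_2, with 1.93 points, then to Nppa_1 with 3.93 and Myh6_1 with 7.68. For Tnnc1_2 such a mean hides sites from 1% to 91%, so it is a likeness of averages only.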

How the data were processed

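DNA was bisulfite-converted, amplified in 2 regions of each of 15 genes, tagmented and sequenced, per the labels' protocols. The submitters' processing notes name FastQC, Bismark, Bowtie2 and mm10, and settings are not given in the sources used here. The deposited files list each cytosine with its coverage (a read count) and the percent of those reads with C and with T, per the file headers. Coverage times percent gave whole reads (within 0.01) at 23884 of 23884 values, used as methylated counts. Summed coverage per library was 27193672 to 32543683 cytosine calls, and Tnnc1 sites had 2757 to 78887 reads. The labels' protocols describe no molecular identifiers, so intervals cover counting error and spread between libraries, not losses in PCR.

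Sites (coverage of at least 30 in all 9 libraries, 310 sites) and regions (summed counts, 26 regions) entered edgeR 4.0.16 (R 4.3.3), with a quasi-likelihood test of methylated against unmethylated reads and a term for each library. All 9 libraries entered a single fit. P-values were two-sided and adjusted by Benjamini-Hochberg over all sites or regions of a comparison, and called below 0.05. Region means per library were compared by exact permutation tests (scipy 1.17.1). The fits were tested on simulated data. Every Tnnc1 CpG is described, and other regions follow a fixed rule (troponin and sarcomere genes, and the 3 nearest in level). Members, lists and tests were chosen with earlier results of these data known.

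Results were recomputed with a coverage minimum of 10 or 100, with limma 3.58.1 (prior count 2), DESeq2 1.42.0, a fit to 6 libraries, sites between 2% and 98%, pooled reads, a replicate block and leaving out each library. Deviations from group means over the 310 sites were correlated between libraries. For DNMT3b with negative siRNA, same-numbered libraries gave 0.404, 0.197 and 0.124, and different-numbered ones -0.313 to 0.21. For DNMT3a with DNMT3b siRNA, same-numbered ones gave 0.332, 0.287 and 0.166, and different-numbered ones -0.36 to 0.0851. For DNMT3a with negative siRNA, these were 0.465, -0.192 and -0.233, and -0.531 to 0.794. The values thus do not settle whether equal numbers mark pairs. Cytosines were matched to RefSeq windows of GRCm38.p6 by patterns of 60 offsets in steps of 10 on both strands.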

Additional observations from a re-analysis of the deposited data

How the results depend on the processing

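Over 19 results and 173 alternative values, 163 were unchanged, but not all of them could change in the same way. Of 80 alternative mean levels, 74 kept their direction. Where these compare groups, the smallest p of the exact tests lies above the threshold, so crossing it was not possible. The 39 alternative site counts have no direction and could change only by a call. The 54 alternative odds ratios could change in direction and in side of the threshold, and 50 changed in neither. The number of Tnnc1 sites called was 0 under all 39 alternatives, with any single library left out included (over all sites, DESeq2 called 4 for DNMT3a against negative siRNA and 7 for DNMT3a against DNMT3b siRNA, and edgeR on sites between 2% and 98% called 2 for the first), and 0 of the 54 alternative odds ratios of the Tnnc1 regions passed (without DNMT3a siRNA replicate 2, edgeR called 3 other regions for DNMT3a against negative siRNA). With the replicate block, edgeR called 0 Tnnc1 sites in each comparison (smallest adjusted p 0.536, 0.586 and 0.711 for DNMT3a against negative, DNMT3b against negative and DNMT3a against DNMT3b siRNA), and the block changed no call. Paired differences had exact sign-flip p-values of 0.25 or more, the smallest possible with 3 pairs.

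The direction turned for 10 values, all of differences near 0. For Tnnc1_1 after DNMT3a siRNA the difference of -0.11 points became 0.035 with reads pooled, and ranged from -0.49 to 0.31 over single libraries left out (0.095 when DNMT3a siRNA replicate 3 was dropped, 0.31 when negative siRNA replicate 3 was). Its log2 odds ratio ranged from -0.066 to 0.077 in the same way (-0.066 and -0.0019 when replicates 1 and 2 of negative siRNA were dropped, -0.042 when DNMT3a siRNA replicate 2 was). Tnnc1_2 in DNMT3a against DNMT3b siRNA turned from -0.50 to 0.36 points with reads pooled, and its log2 odds ratio ranged from -0.00075, without DNMT3b siRNA replicate 3, to 0.049. The difference between regions after DNMT3b siRNA, 0.080 points, was -0.26 without DNMT3b siRNA replicate 3 and -0.29 without negative siRNA replicate 1, and at most 0.36 over single libraries left out. With reads pooled it was 1.07 points. The cause was not tested. The difference of Tnnc1_2 after DNMT3a siRNA was -1.49 to -0.89 points over libraries left out and -1.52 with reads pooled.

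With 3 libraries per group, exact tests cannot go below 0.10. Every Tnnc1 site had at least 2757 reads in every library.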

Other observations

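Outside CpG, cytosines of the Tnnc1 regions were nearly fully converted wherever coverage was high. Of the 81 cytosines outside CpG listed for Tnnc1_2, the 70 with at least 1000 reads in every library had mean levels of at most 0.47%. Of the 66 in Tnnc1_1, the 60 with such coverage had mean levels of at most 2.04%, the highest being offset 328 with 2736 to 4326 reads. Means above 2.04% were found only near the ends of the regions, at cytosines with at most 616 reads in any library. In Tnnc1_2, offsets 7, 9 and 11 carried C in 71.0%, 60.2% and 49.2% of reads in mean over the 9 libraries, at 59 to 171 reads. Offsets 404 and 406 carried C in 52.2% and 46.2%, at 27 to 50 reads. In Tnnc1_1, offset 352 carried C in 63.4% of 10 to 19 reads, and offset 6 in 43.4% of 10 to 31 reads. None of these is a CpG. Those of Tnnc1_2 are all part of the pooled level outside CpG given above for that region, where reads of deeply covered cytosines dominate.

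In Tnnc1_2 offsets 196 and 340, and in Tnnc1_1 offset 198, lie between more highly methylated neighbours on both sides in all 9 libraries. Steps between neighbouring CpG sites reached 64.6 points in mean in Tnnc1_2 and 22.0 points in Tnnc1_1. The files give no read-by-read patterns, so whether single molecules are methylated at some of these sites and not at others was not analysed here.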
